A study of Mus musculus with 7 samples.

Results

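The intracellular serpins of clade B are described here through 7 mouse genes, Serpinb1a, Serpinb2, Serpinb6a, Serpinb6b, Serpinb8, Serpinb9 and Serpinb9b. They were chosen by gene symbol from the 56422 symbols of an RNA-seq table, in which the family has 28 symbols in all. The table holds 7 libraries of poly(A) RNA that the submitters label CD8+ T cells, lymphocytes able to kill infected or malignant cells, from ascites of mice with peritoneal metastasis, in a series on mannose and anti-PD-1 treatment of ovarian cancer. There were 3 libraries from mice given propionate and butyrate together, which are short-chain products of bacterial fermentation in the gut, and 4 from mice with no treatment. The sources used here do not give strain, age, dose, tumour line or the number of animals behind a library. The tests therefore rest on the spread from library to library, which may be technical. Treated replicates 1 and 2 and control replicates 1 to 4 were matched to their columns by name. The remaining treated column carries a number that no treated sample has, and it is called the third treated library.

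Serpins are proteins that trap a protease: the target cuts an exposed loop of the serpin and stays bound to it. Clade B members lack a classical secretion signal and act mostly inside cells. In lymphocytes and in the cells that lymphocytes attack, they are known for blocking granzymes, the proteases of cytotoxic granules, that reach the cytosol. In myeloid cells they block the elastase-like proteases of granules and the activators of plasminogen.

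Values are TPM, a length-corrected level that sums to the same total in every library and carries no depth. The number of genes at 1 TPM or more ranged from 13914 to 14949 per library. Against the label, the control libraries held little T cell RNA. The 12 T cell markers summed to 616 to 2680 TPM in treated and 121 to 216 TPM in control libraries, and all 12 rose in the treated libraries. The 14 macrophage and monocyte markers summed to 3760 to 4280 TPM in treated and 6220 to 15000 TPM in control libraries. The 12 epithelium and mesothelium markers summed to 873 to 1660 TPM in treated and 2320 to 2790 TPM in control libraries. None of the markers of these 3 lists was listed at 0 in all libraries. The third treated library had 32.9% of its TPM in mitochondrially encoded genes, against 13.6% to 18.2% in the other 6 libraries, and control replicate 3 had the highest macrophage and neutrophil sums.

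The sequences at the start of 4 members are shown. They were chosen because Serpinb6b, Serpinb9 and Serpinb9b were lower in the treated libraries and lie next to each other on chromosome 13. Serpinb2, on chromosome 1, had the opposite sign. Serpinb9b reached 1 TPM only in control libraries, so its difference is not support for a shared change. Each line gives RefSeq sequence of build GRCm38.p6, an earlier build than the mm39 named for these data, from 250 bases before to 50 bases after the annotated start, 5′ to 3′ on the strand of the gene. Capitals mark matches on either strand to GAAA followed by any 2 bases and GAAA again, a core of interferon-stimulated response elements. They also mark TGANTCA, a loose form of the AP-1 site with any base in the middle, and TATAAA, the TATA box.
Serpinb9 (chr13:33004291-33004590, plus strand): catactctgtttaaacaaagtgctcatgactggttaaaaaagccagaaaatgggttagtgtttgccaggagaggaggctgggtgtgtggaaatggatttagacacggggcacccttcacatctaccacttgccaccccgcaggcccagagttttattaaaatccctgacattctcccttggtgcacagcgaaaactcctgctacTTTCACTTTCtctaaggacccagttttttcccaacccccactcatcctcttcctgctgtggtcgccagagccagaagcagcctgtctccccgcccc
Serpinb9b (chr13:33027164-33027463, plus strand): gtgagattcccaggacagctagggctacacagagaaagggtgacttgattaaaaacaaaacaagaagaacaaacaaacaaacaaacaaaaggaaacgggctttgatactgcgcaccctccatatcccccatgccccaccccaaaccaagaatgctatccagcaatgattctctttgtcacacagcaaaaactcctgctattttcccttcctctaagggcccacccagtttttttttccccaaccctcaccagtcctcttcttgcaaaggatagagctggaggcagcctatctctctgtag
Serpinb6b (chr13:32965011-32965310, plus strand): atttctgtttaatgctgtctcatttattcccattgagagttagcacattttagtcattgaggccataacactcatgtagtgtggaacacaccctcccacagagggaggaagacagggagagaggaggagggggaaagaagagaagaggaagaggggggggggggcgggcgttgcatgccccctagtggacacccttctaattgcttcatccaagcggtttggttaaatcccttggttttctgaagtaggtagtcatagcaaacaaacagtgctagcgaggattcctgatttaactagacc
Serpinb2 (chr1:107511173-107511472, plus strand): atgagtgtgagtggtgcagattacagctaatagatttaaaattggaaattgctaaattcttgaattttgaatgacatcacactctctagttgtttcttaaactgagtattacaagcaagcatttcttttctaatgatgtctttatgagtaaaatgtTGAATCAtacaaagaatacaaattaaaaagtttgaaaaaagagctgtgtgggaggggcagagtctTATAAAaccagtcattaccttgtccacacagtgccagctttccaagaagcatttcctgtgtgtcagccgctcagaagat

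Serpinb9 holds 1 match to the interferon element, read GAAAGTGAAA on the opposite strand, whose left end lies at position -46 from the start. That motif is found in 3.44% of the 32851 RefSeq windows of this kind. Neither the Serpinb9b nor the Serpinb6b window holds any of the 3 motifs, which says only that these letters are not in the window. The printed window of Serpinb2 holds TATAAA at -29 and TGAATCA at -94. RefSeq has a second start for Serpinb2, from which the same matches lie at -116 and -181. Among all windows the shares are 13.6% with TATAAA and 7.81% with TGANTCA. RefSeq windows were matched for 6 of the 7 members, Serpinb1a being the other. Of those not printed, Serpinb8 holds TGAGTCA at -23 and 13, and 1 of the windows of Serpinb6a holds the interferon element at -84. The windows of Serpinb9 and Serpinb9b aligned with 187 identical bases of 275 aligned, or 68.0%. Every other pair of windows from different members had 54.4% to 69.3% identity over 180 to 268 aligned bases, the highest being Serpinb2 with Serpinb9.

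In the RefSeq order of protein-coding genes, Serpinb6b, Serpinb9 and Serpinb9b follow one another without a gene between them. The family has 16 genes in the chromosome 13 group, from Serpinb1a at one end to Serpinb6a at the other, and 12 in the chromosome 1 group, which holds Serpinb2 and Serpinb8. In these libraries 8 of the 16 and 5 of the 12 were listed at 0 in every library, among them Serpinb9c to Serpinb9h, close copies of Serpinb9. The sources used here do not say how reads of such copies were shared out, so values of the Serpinb6 and Serpinb9 copies are uncertain to that extent.

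Of the 7 members, 3 fell in the treated libraries, Serpinb6b, Serpinb9 and Serpinb9b, and 0 rose. All 7 entered the test, which took genes at 1 TPM or more in at least 3 of the 7 libraries. Serpinb9b entered through the control libraries alone, the group in which it was high, so its call is not counted as support. The test was limma on log2(TPM + 1), with p-values adjusted by Benjamini-Hochberg over 14967 genes and genes called at an adjusted p under 0.05. Across all tested genes 7.59% were called lower, 4.3% higher and 11.9% in either direction. The unadjusted limma p was under 0.05 for 5 members, and for 4567 of the 14967 tested genes. The median log2 fold change was -0.52 over the members and -0.24 over all tested genes. With median-of-ratios scaling, which moves the median of all tested genes to 0.00, the same 3 members stayed lower. That scaling also changed the balance of calls over the whole table, to 1306 higher and 955 lower against 643 higher and 1136 lower with TPM as deposited.

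**Figure D1:**
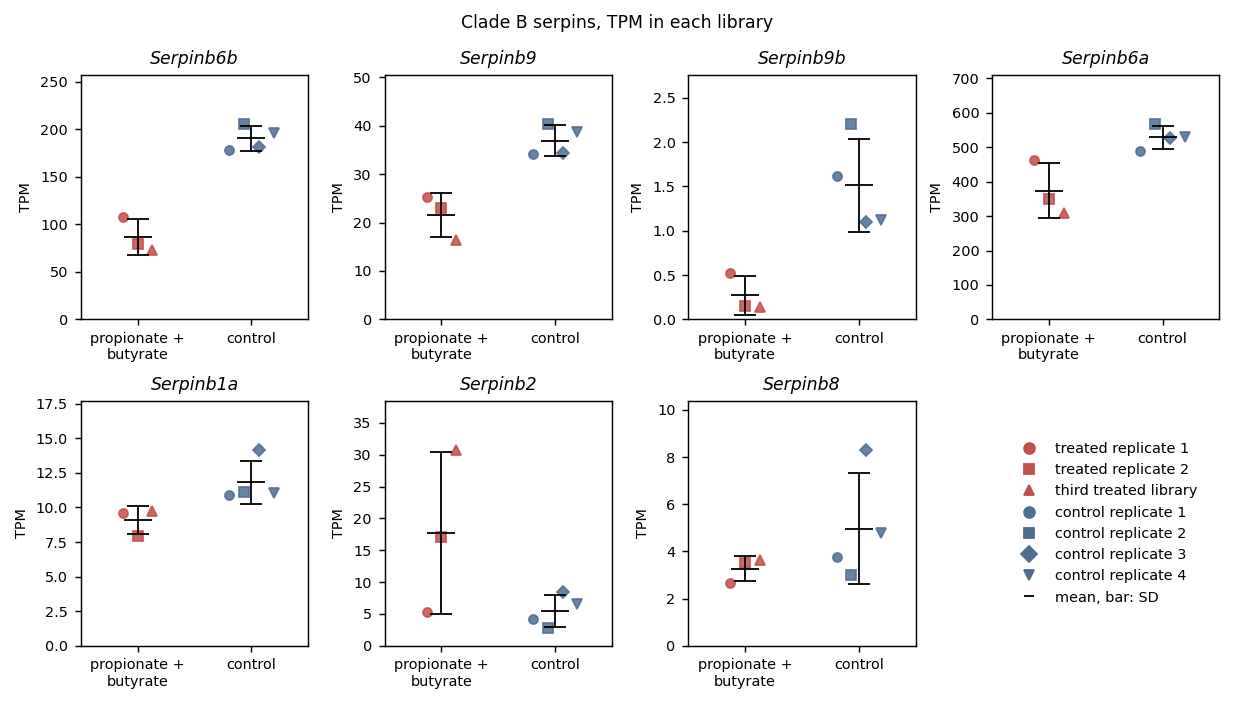
TPM of each clade B serpin in the 3 treated (red, left) and 4 control libraries (blue, right), 1 point per library, with the mean and SD in black and each vertical axis starting at 0. The treated points of Serpinb6b, Serpinb9, Serpinb9b, Serpinb6a and Serpinb1a lie below all control points, and those of Serpinb2 and Serpinb8 overlap with them.

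Serpinb6b, a mouse inhibitor of granzyme A, had 107.88, 78.83 and 72.89 TPM in treated replicates 1 and 2 and the third treated library, against 178.68, 206.19, 181.03 and 196.67 TPM in control replicates 1 to 4. Every treated library lay below every control library. The mean was 86.5 ± 18.7 TPM (SD, n = 3) in treated and 191 ± 13.1 TPM (SD, n = 4) in control libraries, so that the treated mean was 45.4% of the control mean. Serpinb6b fell by 1.15 on the log2 scale (SE 0.20), with a limma adjusted p of 0.00208. With median-of-ratios scaling the log2 fold change was -0.88 (adjusted p = 0.00688). The call held with each library left out in turn, at adjusted p values of 0.00166 to 0.00854. Macrophage markers summed to 47.3% and epithelium and mesothelium markers to 48.3% of their control level in the same libraries. Apoe alone held 1770 of 4080 TPM of the mean macrophage sum in treated and 5060 of 8630 TPM in control libraries. Within that list Adgre1, Ccr2 and Ly6c2 stood at 106%, 125% and 678% of control, and the other genes stood below it. Of the epithelium and mesothelium list, Cdh1 alone stood above control, at 106%. With the macrophage sum as a covariate, an alternative added after the data were seen, the log2 fold change was -1.22 and the limma adjusted p 0.0562. With the epithelium sum as a covariate, also added later, it was -0.48 (adjusted p = 0.854), in a fit that called 0 genes of the whole table and 585 at an unadjusted p under 0.05. In bulk samples, fewer cells of a type and less RNA per cell cannot be told apart.

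The Serpinb6b total was the sum of 4 transcript rows, and these rows differed among themselves. The leading row had 54.00, 38.61 and 37.68 TPM in treated and 92.62, 103.60, 87.41 and 97.04 TPM in control libraries. The second row had 40.26, 21.92 and 15.28 TPM in treated and 66.75, 86.76, 82.30 and 75.25 TPM in control libraries. Both rows were lower in every treated library than in any control library. The third row had 13.62, 16.81 and 19.93 TPM in treated and 19.31, 14.55, 11.32 and 22.88 TPM in control libraries (means of 16.79 TPM in treated and 17.02 TPM in control libraries). Its groups overlapped, and no row was tested by itself except through a fit on the leading row of each gene, where Serpinb6b had a log2 fold change of -1.13 (limma adjusted p = 0.00447). The rows carry no transcript identifier, so which transcripts they are cannot be given.

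**Figure D2:**
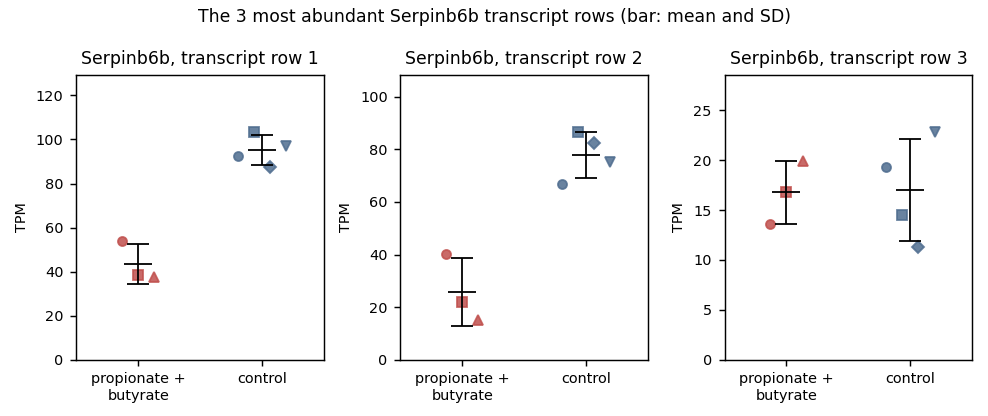
TPM of the 3 most abundant Serpinb6b transcript rows in treated (red, left) and control libraries (blue, right), 1 point per library, with the mean and SD in black. Treated and control points are apart in rows 1 and 2 and overlap in row 3.

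Serpinb9, the inhibitor of granzyme B that protects cytotoxic lymphocytes from their own protease, had 25.29, 22.97 and 16.39 TPM in treated and 34.11, 40.45, 34.34 and 38.72 TPM in control libraries. The groups did not overlap, and the third treated library was the lowest of all. The mean was 21.6 ± 4.62 TPM (SD, n = 3) in treated and 36.9 ± 3.18 TPM (SD, n = 4) in control libraries. Serpinb9 fell by 0.77 on the log2 scale (SE 0.20, limma adjusted p = 0.0248). With median-of-ratios scaling the log2 fold change was -0.50 (adjusted p = 0.0162). The call was lost without control replicate 1, 2 or 4 (limma adjusted p = 0.0516, 0.0738 and 0.0715, with log2 fold changes of -0.80, -0.72 and -0.74). At least 94.78% of Serpinb9 TPM in each library lay on 1 of its 2 transcript rows. With the macrophage covariate the log2 fold change was -0.90 (adjusted p = 0.24), and with the epithelium covariate it was -0.15 (adjusted p = 0.885).

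Serpinb9b, a mouse inhibitor of granzyme M, was close to the lowest level that entered the test. It had 0.52, 0.15 and 0.14 TPM in treated and 1.62, 2.21, 1.10 and 1.12 TPM in control libraries. Only the control libraries reached 1 TPM, so the gene entered the test through the group in which it was high, and its difference supports nothing about the family. Serpinb9b fell by 0.98 on the log2 scale (SE 0.25, limma adjusted p = 0.0209). The size depended on the pseudocount, with -2.22 at 0.1 and -0.30 at 5. Leaving out treated replicate 2 or the third treated library ended its call (limma adjusted p = 0.0669 and 0.0681).

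Serpinb6a, known as an inhibitor of cathepsin G and of trypsin-like proteases, was the most abundant member and ranked 233 of the 14967 tested genes by mean TPM. It had 463.68, 349.18 and 308.24 TPM in treated and 488.82, 569.05, 525.86 and 531.14 TPM in control libraries. The groups did not overlap, although treated replicate 1 came close to control replicate 1. The mean was 374 ± 80.6 TPM (SD, n = 3) in treated and 529 ± 32.8 TPM (SD, n = 4) in control libraries, a log2 fold change of -0.52 (SE 0.21) that was not called (limma adjusted p = 0.109). Without treated replicate 1 it was called, at -0.68 (adjusted p = 0.0265). Its 17 transcript rows were led by 1 row with 78.05% to 83.9% of its TPM in each library.

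Serpinb1a, an inhibitor of neutrophil elastase and related granule proteases, had 9.58, 7.93 and 9.77 TPM in treated and 10.89, 11.15, 14.17 and 11.08 TPM in control libraries. The groups did not overlap, but the log2 fold change of -0.34 (SE 0.20) was not called (limma adjusted p = 0.265). With median-of-ratios scaling it was -0.09 (adjusted p = 0.764). Control replicate 3, its highest library, also had the highest sum of the 10 neutrophil markers, at 432 TPM, against 45.7, 19.7 and 118 TPM in the other 3 control libraries.

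Without overlap between the groups and lower in the treated libraries were 5 members, the 3 that fell together with Serpinb6a and Serpinb1a. Serpinb9b is among them and entered the test through the control libraries alone. Among all tested genes 25.7% were lower without overlap, 4.82% were higher without overlap and 30.5% were apart in either direction.

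Serpinb2, or plasminogen activator inhibitor type 2, which blocks urokinase and is known for its induction in macrophages, was the only member with a positive log2 fold change. It had 5.33, 17.10 and 30.78 TPM in treated and 4.12, 2.70, 8.47 and 6.57 TPM in control libraries. Treated replicate 1 lay within the control range, and treated replicate 2 and the third treated library lay above it. The mean was 17.7 ± 12.7 TPM (SD, n = 3) in treated and 5.46 ± 2.56 TPM (SD, n = 4) in control libraries. The log2 fold change was 1.34 (SE 0.44) and was not called (limma adjusted p = 0.0597). It was called without treated replicate 1 (1.98, adjusted p = 0.0146), without control replicate 3 (1.56, adjusted p = 0.00575), without control replicate 4 (1.45, adjusted p = 0.028) and when 5 TPM was required (1.34, adjusted p = 0.0201). Robust variance estimation gave an adjusted p of 0.24, and leaving out the third treated library gave 0.82 (adjusted p = 0.302). With the macrophage and monocyte sum as a covariate it was called, at 1.94 (adjusted p = 0.0401), and the sign turned with the epithelium covariate, at -1.50 (adjusted p = 0.854). The 11 peritoneal macrophage markers summed to 284, 326 and 476 TPM in treated and 327, 254, 615 and 348 TPM in control libraries, and the part of this list in the Serpinb2 values was not tested.

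Serpinb8, whose human counterpart inhibits the proprotein convertase furin, had 2.65, 3.51 and 3.64 TPM in treated and 3.76, 2.99, 8.31 and 4.80 TPM in control libraries. The groups overlapped through control replicate 2, and control replicate 3 was the highest. The log2 fold change was -0.42 (SE 0.28, limma adjusted p = 0.322), with a sign that turned to 0.31 under the macrophage covariate (adjusted p = 0.796).

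**Figure D3:**
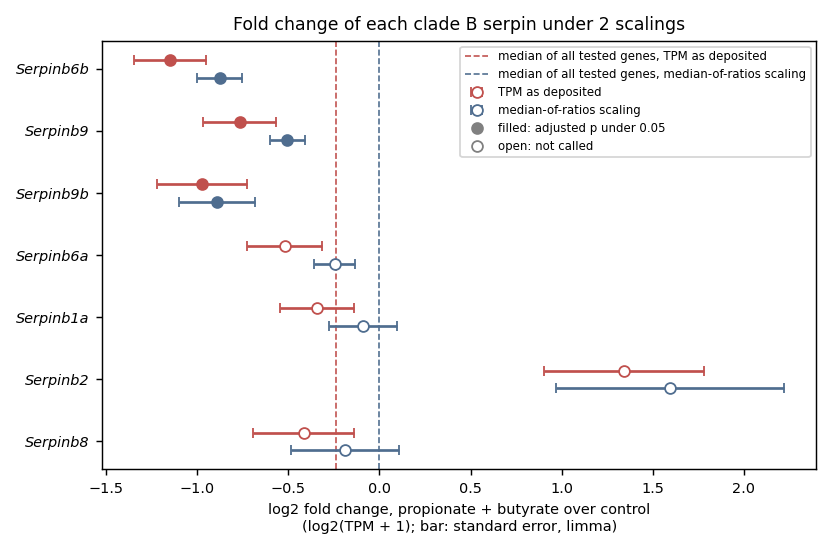
Log2 fold change of each clade B serpin, treated over control, with its limma standard error, for TPM as deposited (red) and after median-of-ratios scaling (blue), filled where called. Dashed lines mark the medians of all tested genes, -0.24 and 0.00, and Serpinb6b, Serpinb9 and Serpinb9b are called under both scalings.

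The members kept much the same order of level in both groups. In treated libraries the mean TPM ran from Serpinb6a (374) through Serpinb6b (86.5), Serpinb9 (21.6), Serpinb2 (17.7), Serpinb1a (9.09) and Serpinb8 (3.27) to Serpinb9b (0.27). In control libraries it ran from Serpinb6a (529) through Serpinb6b (191), Serpinb9 (36.9), Serpinb1a (11.8), Serpinb2 (5.46) and Serpinb8 (4.96) to Serpinb9b (1.51). Serpinb2 overlapped with Serpinb9 and with Serpinb1a in the treated libraries, and with Serpinb8 in the control libraries, so these neighbours did not differ beyond their spread.

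The 7 members summed to 614.93, 479.67 and 441.85 TPM in treated and 722.0, 834.74, 773.28 and 790.1 TPM in control libraries. The treated mean of 512 ± 91.0 TPM (SD, n = 3) was 65.7% of the control mean of 780 ± 46.6 TPM (SD, n = 4), or 79.1% with median-of-ratios scaling. Serpinb6b made up 17.5%, 16.4% and 16.5% of the sum in treated libraries, against 24.7%, 24.7%, 23.4% and 24.9% in control libraries. Serpinb6a made up 69.8% to 75.4% in treated and 67.2% to 68.2% in control libraries. Relative to Serpinb6a, which cancels the scaling of a library, Serpinb6b stood at 0.233, 0.226 and 0.236 in treated libraries, against 0.366, 0.362, 0.344 and 0.370 in control libraries. Serpinb9 stood at 0.0545, 0.0658 and 0.0532 of Serpinb6a in treated and at 0.0698, 0.0711, 0.0653 and 0.0729 in control libraries, where treated replicate 2 lay above control replicate 3. These pairs were chosen after their values were seen and were not tested.

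The proteases that clade B serpins inhibit differed in both directions. Of 9 such genes, 6 were tested, 2 rose and 2 fell. Gzmb, which encodes granzyme B, had 14.04, 69.91 and 17.51 TPM in treated and 3.85, 3.47, 1.30 and 1.92 TPM in control libraries, a log2 fold change of 2.96 (limma adjusted p = 0.000856). Gzma, which encodes granzyme A, had 11.34, 31.48 and 16.56 TPM in treated and 3.76, 2.42, 2.81 and 2.92 TPM in control libraries, a log2 fold change of 2.28 (adjusted p = 0.000492). Both granzymes were higher in every treated library than in any control library. Gzmm, which encodes granzyme M, stayed below the filter, with 3.79, 4.42 and 0.99 TPM in treated and 0.28, 0.40, 0.00 and 0.42 TPM in control libraries.

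Plat, the tissue plasminogen activator, fell by 0.83 (adjusted p = 0.0215), with 25.72 to 43.12 TPM in treated and 51.86 to 62.99 TPM in control libraries. Prtn3, which encodes proteinase 3 of neutrophils, fell by 1.40 (adjusted p = 0.0241), with 7.84, 7.19 and 9.43 TPM in treated and 19.08, 12.49, 57.00 and 20.06 TPM in control libraries. Plau, which encodes urokinase, had a log2 fold change of -0.46 (adjusted p = 0.151), and Furin one of -0.50 (adjusted p = 0.132). Elane and Ctsg, the elastase and cathepsin G genes of neutrophils, had their highest values at 0.56 and 0.18 TPM.

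Set against the protease each inhibits, Serpinb9 and Serpinb6b were lower in the treated libraries. The ratio of Serpinb9 to Gzmb, computed on TPM + 1, was 1.75, 0.338 and 0.939 in treated and 7.24, 9.27, 15.4 and 13.6 in control libraries. Serpinb9 was thus below Gzmb in treated replicate 2 and the third treated library and above it in the other 5 libraries. The difference of the mean log2 ratios was -3.73, with means of -0.28 ± 1.20 (SD, n = 3) in treated and 3.44 ± 0.50 (SD, n = 4) in control libraries. Its two-sided exact permutation p was 0.0286, the smallest that the 35 splits allow, and 0.0476 with Benjamini-Hochberg adjustment over 5 ratios. Serpinb9 was lower and Gzmb higher in every treated library than in any control library. Their ratio therefore had to separate the groups, and its p adds no support beyond the differences of the genes themselves.

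Serpinb6b to Gzma stood at 8.82, 2.46 and 4.21 in treated and at 37.7, 60.6, 47.8 and 50.4 in control libraries. The log2 difference was -3.43, with the same exact permutation p of 0.0286 (adjusted p = 0.0476). Serpinb6b and Gzma were also already apart in opposite directions, so this p likewise adds no support. Serpinb9b to Gzmm stood at 0.317, 0.212 and 0.573 in treated and at 2.05, 2.29, 2.10 and 1.49 in control libraries, a log2 difference of -2.54. Serpinb9b entered the test through the control libraries alone and Gzmm did not enter it, so no p is given for this pair. The adjustment over 5 ratios still counted this pair. The adjusted p of 0.0476 of the other granzyme ratios therefore depends on it, and they are not read as passing 0.05. The log2 difference of Serpinb9b to Gzmm was -0.89 with a pseudocount of 5 and -5.30 with 0.1. The change of the granzyme was the larger part of the Serpinb9 and Serpinb6b ratios, 2.96 against -0.77 and 2.28 against -1.15 on the log2 scale. The T cell markers summed to 852% of their control level in the same libraries, and their part in these ratios was not tested.

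Serpinb2 to Plau had values of 1.04, 3.56 and 6.08 in treated and 0.725, 0.517, 1.10 and 1.03 in control libraries, with overlap. The log2 difference of 1.80 had a two-sided exact permutation p of 0.0571 (adjusted p = 0.0714). Serpinb8 to Furin had values of 0.157 to 0.250 in treated and 0.097 to 0.284 in control libraries, a log2 difference of 0.09 (exact permutation p = 0.83, unchanged by the adjustment).

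**Figure D4:**
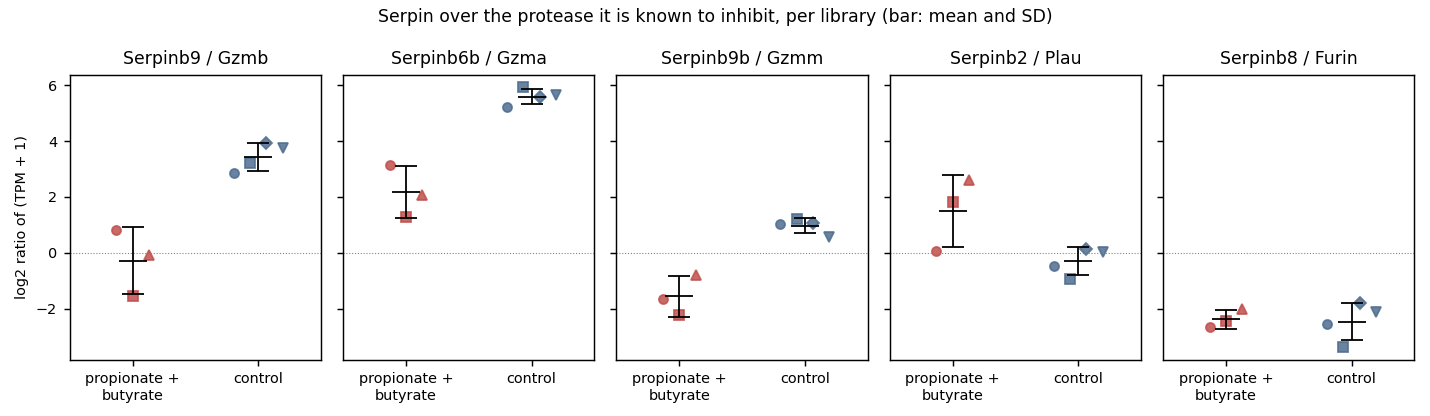
Log2 ratio of each serpin over the protease it is known to inhibit, on TPM + 1, in treated (red, left) and control libraries (blue, right), 1 point per library, with the mean and SD in black and a dotted line at equal levels. The treated points of the 3 granzyme pairs lie below all control points, and those of the Serpinb2 and Serpinb8 pairs overlap with them.

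Among 21 further clade B genes, 2 reached 1 TPM in a library, 6 stayed below it and 13 were listed at 0 throughout. Serpinb10, known from human bone marrow cells as bomapin, was the only tested one, with 1.28, 1.76 and 5.34 TPM in treated and 1.24, 0.56, 2.36 and 2.24 TPM in control libraries (log2 fold change 0.46, limma adjusted p = 0.389). Its 2 transcript rows hold identical values in every library, so the sum may count the same reads 2 times. Serpinb7 had 0.61, 1.21 and 0.53 TPM in treated and 0.68, 0.00, 0.33 and 0.08 TPM in control libraries and was not tested.

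Serpins of other clades moved in both directions. Of 30 genes 8 were tested, 3 rose and 1 fell. Serpina3g, an intracellular inhibitor of cathepsins that is known from activated and memory T cells, had 24.62, 60.74 and 18.08 TPM in treated and 9.0, 7.58, 6.77 and 7.70 TPM in control libraries, a log2 fold change of 1.83 (limma adjusted p = 0.00221). Its relative Serpina3f rose by 0.83 (adjusted p = 0.0489), and Serpini1, or neuroserpin, rose by 1.04 (adjusted p = 0.0126) after entering the test through the treated libraries alone. Serpinh1, the collagen chaperone, fell by 0.89 (adjusted p = 0.0238), and fibroblast markers summed to 51.9% of their control level.

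Of 12 lysosomal cathepsins, which some intracellular serpins also inhibit, 11 were tested. The median of their log2 fold changes was -0.51, with 1 called higher and 3 called lower. Ctsw, a cathepsin of cytotoxic lymphocytes, rose by 2.84, and Ctsl, Ctsz and Ctsh fell by 0.90, 0.68 and 0.70. Of 10 genes of plasminogen activation 7 were tested and 1, Plat, fell (median -0.46). Of 11 genes of the inflammasome, which the human counterpart of Serpinb1a is known to restrain, 1, Gsdmd, fell by 0.69 and 0 rose (median 0.09). Of 11 granzyme and perforin genes 4 were tested, and all 4, Gzmk, Gzma, Gzmb and Prf1, rose (median 2.51).

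The expression profile of each member that fell was compared with 8160 tested genes of at least 10 TPM on average, clade B genes and unnamed gene models left out, by the root mean square difference of log2(TPM + 1) values centred over the 7 libraries. Centring over all 7 libraries leaves the difference between the groups in each profile. Genes near a member that fell therefore have to share most of its fall. Nearest to Serpinb6b were Igsf9, Tuft1 and Olfml2b, at 0.0773, 0.0913 and 0.0981, with log2 fold changes of -1.07, -0.99 and -0.98. Nearest to Serpinb9 were Tanc1, Rfc5 and Fkbp2, at 0.0521, 0.0587 and 0.0603, with log2 fold changes of -0.70, -0.73 and -0.70. Nearest to Serpinb9b were Selenom, Olfml3 and Ppp1r13l, at 0.0719, 0.0852 and 0.105. Serpinb9b had means of 0.27 TPM in treated and 1.51 TPM in control libraries, where the pseudocount shrinks its change. Selenom had 67.8 and 132 TPM, so the likeness of Serpinb9b to these genes depends on the pseudocount.

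Of the other cell type markers, 3 of 3 tested natural killer cell genes rose (Gzma, Eomes and Klra9, the last having entered the test through the treated libraries alone) and 4 of 5 tested fibroblast genes fell (Col1a2, Dcn, Col3a1 and Col1a1). Epithelium and mesothelium markers fell in 8 of 11 tested genes. Those not called were Wt1 and Muc16, at 64.0% and 62.0% of control, and Cdh1, at 106%. Epcam, which was not tested, stood at 83.9%. Macrophage and monocyte markers had 1 called higher, Ly6c2, and 2 called lower, Apoe and Fcgr1, of 14 tested. Single calls were made for Icam2 (higher) among 11 peritoneal macrophage genes, Siglech (higher) among 6 dendritic cell genes and Kit (lower) among 5 mast cell genes. No call was made among 5 neutrophil and 5 B cell genes tested. The sums stood at 607% of control for natural killer cells, 124% for B cells, 93.7% for peritoneal macrophages, 81.0% for dendritic cells, 58.1% for mast cells and 57.2% for neutrophils. The neutrophil sums were 51.4, 118 and 94.9 TPM in treated and 118, 19.7, 432 and 45.7 TPM in control libraries. These groups overlapped, and the control mean of 154 ± 190 TPM (SD) leaned on control replicate 3, so 57.2% is not read as a fall. Gzma (mean of 19.8 TPM) and Eomes (15.7 TPM) made up most of the treated natural killer cell sum of 43.9 TPM. Gzma is also on the granzyme list, and Ncr1 and Klrb1c were too low to be tested. H2-Ab1 (793 TPM) made up most of the treated dendritic cell sum of 822 TPM, and the other dendritic cell genes lay on both sides of control. Kit (35.7 TPM) and Hdc (14.1 TPM) made up most of the control mast cell sum of 56.8 TPM. Cpa3 stood at 119% of control, and the other mast cell genes stood below it. The part of these lists in the serpin values was not tested.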

How the data were processed

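Per the labels' protocols, total RNA extracted with TRIzol was enriched for mRNA on oligo(dT) beads and turned into stranded libraries. The authors deposited TPM values for 149132 transcript rows, most with a gene symbol. fastp, HISAT2, StringTie and the build mm39 are named in the submitters' processing notes without roles or versions. TPM carries no depth, so no counting interval or detection limit can be given, and a gene with a large share lowers all others in its library. The table has 0 value columns beyond the 7 used.

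TPM was summed per symbol (56422 symbols). Left out were 1001 rows without a symbol, with 0.307% to 0.618% of TPM. Genes at 1 TPM or more in at least 3 libraries were fitted on log2(TPM + 1), which understates the change of low genes, with limma 3.58.1 in R 4.3.3 (trend in the variance, Benjamini-Hochberg adjustment). For ratios, the permutation test was exact and two-sided, over 35 splits. The fit was tested on simulated data, with 40 changed genes per size. It recovered 52.5% of log2 changes of -1 and 45% of changes of 1, against 97.5% at -2 and 80% at 2. Of 14767 unchanged genes it called 6. Changes smaller than 1 were not simulated, so a member that was not called is not shown to be unchanged. Protein sequences were not used here.

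Alternatives changed the pseudocount, filter, scaling, variance model, library weights, transcript rows and replicate block, and left out each library. The 7 members, the lists and the tests were chosen with earlier results of these data known. Named are the members, other clade B genes at 1 TPM, the inhibited proteases, up to 4 called genes per list, taken by smallest p, and the 3 genes nearest to each called member. Marker sums beside results were chosen after their values were seen. A result on 1 gene is not reported here.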

Additional observations from a re-analysis of the deposited data

Results flagged for a closer look

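In 4 of 24 sets of control values, 1 library stood apart from the other 3 by Dixon's test at the 95% level, which chance flags in about 1 of 20 sets. Serpinb1a had 14.2 TPM in control replicate 3, against 10.89 to 11.15 TPM in the other control libraries. Prtn3 had 57.0 TPM in the same library, against 12.49 to 20.06 TPM in the others. Elane had 0.56 TPM there, against no more than 0.08 TPM in the others. The neutrophil marker sum of control replicate 3 was 432 TPM, against 19.7 to 118 TPM in the other control libraries, and its part in these values was not tested. Ctsg was listed at 0.0 TPM in control replicate 1, against 0.08 to 0.09 TPM in the others.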

How the results depend on the processing

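Serpinb6b kept its direction under all 21 alternatives and its call under 18. Its limma adjusted p was 0.0611 (-1.15) with no filter on low values, 0.0562 (-1.22) with the macrophage covariate and 0.854 (-0.48) with the epithelium covariate. Serpinb9 lost its call with no filter (-0.77, 0.0821), the replicate block (-0.60, 0.213), the macrophage (-0.90, 0.24) and the epithelium covariate (-0.15, 0.885). Its log2 fold change ranged from -0.89 to -0.59 with each library left out, where adjusted p reached 0.0738 (-0.72, without control replicate 2). Serpinb9b lost its call with no filter (-0.98, 0.0781), the replicate block (-1.13, 0.152), the macrophage (-1.19, 0.127) and the epithelium covariate (-0.29, 0.864). It also lost it when control replicate 3 and the third treated library were removed together (-0.98, 0.0851), and it ranged from -1.11 to -0.85 with each library left out. Serpinb2 was called when 5 TPM was required (1.34), under array weights (1.36) and under the macrophage covariate (1.94), turned sign with the epithelium covariate (-1.50), and ranged from 0.82 to 1.98 with each library left out (1.10 without control replicate 2). Array weights made Serpinb6a (-0.52) and Serpinb1a (-0.45) calls. Serpinb6a ranged from -0.68 to -0.39 with each library left out and was at 0.17 with the epithelium covariate. Serpinb8 was at 0.31 with the macrophage covariate. The covariates were added after seeing the data, as was the removal of 2 libraries together, and the cause of each change was not tested.

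Members called lower numbered 3, Serpinb9b among them, against 0 with no filter or either covariate, 5 with array weights and 1 with the replicate block. They numbered 2 to 4 with each library left out. Members called higher numbered 0 (5 at an unadjusted p under 0.05 in either direction), against 1, Serpinb2, when 5 TPM was required, with array weights or with the macrophage covariate, and 0 to 1 with each library left out. Over all 14967 tested genes, 643 were higher and 1136 lower, and 4567 had an unadjusted limma p under 0.05. There were 3 and 4 with no filter (6003 at an unadjusted p under 0.05), and under array weights 2246 and 4221. The epithelium covariate left 0 higher and 0 lower by limma (585 at an unadjusted p under 0.05). Median-of-ratios scaling gave 1306 higher and 955 lower. Lower genes numbered 1872 without mitochondrially encoded genes, 138 with the replicate block, 148 with the macrophage covariate and 277 without control replicate 3 and the third treated library. With each library left out, 433 to 834 were higher and 531 to 2910 lower, the most without treated replicate 1 and 645 without the third treated library.

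The replicate block used the 2 numbers that both groups carry, which nothing says pair the samples. Deviations from the group means correlated at -0.02 for number 1 and -0.09 for number 2. Under the block Serpinb6b stayed called (-1.05, adjusted p = 0.0495). With 2 pairs the ratios cannot pass a test (exact p = 0.5). Their log2 differences under the block were -3.41 (Serpinb9 to Gzmb), -3.36 (Serpinb6b to Gzma) and -3.06 (Serpinb9b to Gzmm). With a library left out the smallest exact p is 0.0667 or 0.1. These ratios then ranged from -4.27 to -3.09, from -3.91 to -2.99 and from -2.92 to -2.20. The first 2 were -3.82 and -3.38 without the third treated library, and the last was -2.67 without control replicate 4. Serpinb8 to Furin ranged from -0.21 to 0.30 and turned sign without the third treated library (-0.10) or control replicate 2 (-0.21). The summed members stood at 79.1% of control with median-of-ratios scaling. Depth is unknown, so values under 1 TPM, as for Serpinb9b and Gzmm, cannot be given an error of counting.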
